A study of Mus musculus with 6 samples.

Results

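The genes described are 8 chemokine ligands (Ccl2, Ccl7, Ccl20, Cxcl1, Cxcl5, Cxcl10, Cxcl12 and Cx3cl1) and the receptors Cxcr4 and Ackr3, 10 of the 46517 genes counted. They were chosen on their read counts in the same CTL and TGF-β1 cultures that are compared here, so their differences between the groups are a description and carry no test. The cells were primary renal tubule epithelial cells (RTECs), grown from collagenase-digested kidneys of wild-type FvB mice. The labels give an age of 4 to 6 weeks, whereas the study's methods give 3 to 5 weeks and males. All cultures were grown with serum and EGF to 70% confluence and moved to serum-free RPMI for 24 h. 3 cultures then received TGF-β1 at 50 ng/ml for 24 h, and 3 were controls (CTL), for which a vehicle is not named. The question was what TGF-β1, a cytokine that drives kidney fibrosis, does to the transcripts of these cells.

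Chemokines are small secreted proteins that guide leukocytes through receptors on their surface. Stressed tubule cells are known sources of several of them: CCL2 and CCL7 attract monocytes, CCL20 attracts lymphocytes and dendritic cells through CCR6, CXCL1 and CXCL5 attract neutrophils, CXCL10 attracts activated T cells, and CX3CL1 is made as a membrane-bound form that can be shed. CXCL12 signals through CXCR4, while ACKR3 binds the same ligand and takes it up without classical G protein signalling.

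Many inflammatory chemokine genes carry sites for NF-κB and related factors close before their start. Stretches of 240 bases, from 250 to 11 bases before the RefSeq transcription start, are therefore shown for the members with a match to the NF-κB consensus and for Ackr3, the member with the largest fitted log2 difference between the groups. They come from RefSeq on GRCm38.p6 and are written 5′ to 3′ on the gene's strand, at chr1:83116516-83116755 for Ccl20 (plus strand), chr5:90890995-90891234 for Cxcl1 (plus), chr5:92348900-92349139 for Cxcl10 (minus) and chr1:90203730-90203969 for Ackr3 (plus). Capitals mark matches to the NF-κB consensus and, in Cxcl10, also to the interferon-response core (GAAA, any 2 bases, GAAA) and to TGANTCA (the AP-1 motif).
Ccl20: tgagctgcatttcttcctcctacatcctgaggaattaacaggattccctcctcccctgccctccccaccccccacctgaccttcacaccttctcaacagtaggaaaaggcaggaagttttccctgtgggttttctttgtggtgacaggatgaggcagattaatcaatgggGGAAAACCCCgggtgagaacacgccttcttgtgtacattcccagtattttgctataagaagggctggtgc
Cxcl1: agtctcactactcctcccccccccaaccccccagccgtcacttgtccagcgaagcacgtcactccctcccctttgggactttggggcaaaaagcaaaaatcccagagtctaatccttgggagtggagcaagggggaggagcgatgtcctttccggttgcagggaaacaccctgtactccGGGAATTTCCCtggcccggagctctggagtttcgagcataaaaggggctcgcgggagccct
Cxcl10: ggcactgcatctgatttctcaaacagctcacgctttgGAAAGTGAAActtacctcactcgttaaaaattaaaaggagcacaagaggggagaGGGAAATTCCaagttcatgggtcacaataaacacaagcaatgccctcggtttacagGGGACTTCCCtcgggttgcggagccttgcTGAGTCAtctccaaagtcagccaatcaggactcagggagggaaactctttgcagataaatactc
Ackr3: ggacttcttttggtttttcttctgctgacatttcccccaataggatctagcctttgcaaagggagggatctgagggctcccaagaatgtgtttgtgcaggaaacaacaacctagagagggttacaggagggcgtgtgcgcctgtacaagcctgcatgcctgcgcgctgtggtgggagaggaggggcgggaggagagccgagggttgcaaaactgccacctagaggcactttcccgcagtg

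Promoter sequences were matched for 7 of the 10 members, the others being Ccl2, Ccl7 and Cxcl5. Both strands were searched. The NF-κB consensus was found in 3 of the 7 windows against 3.75% of 32851 promoters of the same length. It began 80 bases before the start in Ccl20, 71 and 70 bases before in Cxcl1, where the 2 matches overlap on opposite strands, and 159 and 103 bases before in Cxcl10. The Cxcl10 window also held the interferon-response core at 213 bases, found in 2.87% of promoters, and TGANTCA at 74 bases, found in 6.58%. TGGGAA, the core of the motif bound by the Notch effector RBPJ, was present in the Ccl20, Cxcl12 and Cx3cl1 windows and in 20.8% of promoters. CAGACA, a SMAD-binding motif, was in 0 of the 7 windows and in 16.5% of promoters. No searched motif matched in the Ackr3 and Cxcr4 windows, which says only that these letters are not there. The map of matches shows their spacing.

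**Figure D1:**
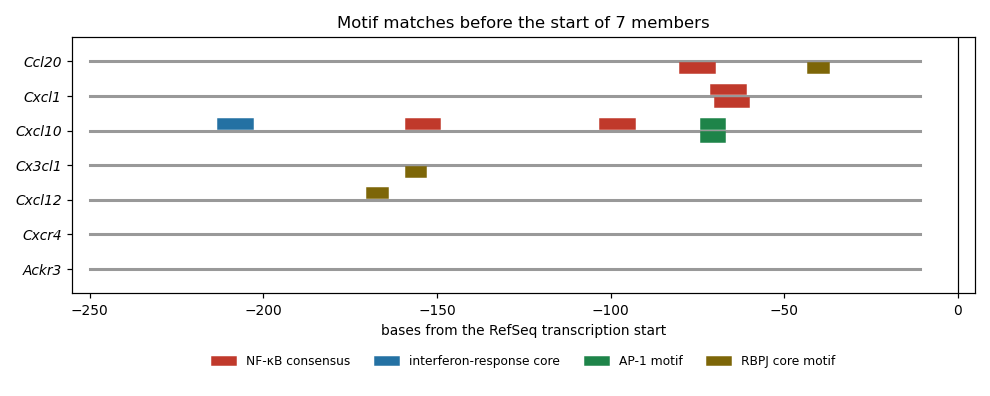
Each grey line is the 240-base window of 1 member, and the x axis gives bases from the RefSeq start. Boxes above a line are matches on the gene's strand and boxes below it matches on the other strand, coloured by motif; Cxcl10 holds matches to 3 of the motifs, and Cxcr4 and Ackr3 hold none.

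Several members lie beside other chemokine genes. On GRCm38, Ccl2 (chromosome 11, 82035571 to 82037453) and Ccl7 (82045712 to 82047525) are neighbours, 8259 bases apart. Ccl20 (83116766 to 83119167), Ackr3 (90203980 to 90216751) and Cxcr4 (128588199 to 128592293) are on chromosome 1. Cxcl5 (90759360 to 90761624), Cxcl1 (90891241 to 90893115) and Cxcl10 (92346638 to 92348889) are on chromosome 5. Cxcl12 is on chromosome 6 (117168535 to 117181367) and Cx3cl1 on chromosome 8 (94772009 to 94782427). On the opposite strand, Ccl2 overlaps Gm17268, which had 0 counts, and Cxcl10 overlaps Art3, which had 17 counts over the 6 cultures. The kit is not stated to keep strand.

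Totals on genes ranged from 28313080 to 34183497 counts, so that 3 counts equal 0.0878 to 0.106 CPM (read counts scaled by the library total), counting error only. All other CPM values are scaled by the library total times its TMM normalization factor. Tubule epithelial markers summed to 1261 to 2849 CPM in CTL and 1050 to 2362 CPM in TGF-β1 cultures, whereas proximal tubule markers summed to 77.6 to 93.5 and 35.7 to 49.5 CPM, with Slc5a2 at or below 3 counts. Collecting duct markers summed to 5.30 to 7.47 and 1.42 to 3.69 CPM and podocyte markers to 409 to 577 and 325 to 381 CPM. These sums mostly follow single genes. Lrp2 was at 62.5 to 74.1 and 28.9 to 41.8 CPM, whereas Cubn, also proximal, was at 4.13 to 4.75 and 4.21 to 5.30. Gata3 made up most of the collecting duct sum, at 3.96 to 6.55 and 1.13 to 3.11 CPM. Synpo made up most of the podocyte sum, at 373 to 541 and 294 to 355 CPM. The part of these shifts in the members' levels was not tested. Fibroblast markers summed to 1256 to 2444 and 1480 to 2803 CPM and leukocyte markers to 9.40 to 22.1 and 7.26 to 19.5 CPM, with Cd3e and Cd79a at or below 3 counts. Both replicate 2 cultures stood apart: 4 Y-linked genes summed to at least 141.9 CPM there and to at most 0.172 CPM in the other cultures, although the methods name male mice. Of 10 TGF-β response genes, 8 rose and 0 fell, against 5.00% and 6.69% of all genes tested. The matrix gene Fn1 was among the 8 (log2 fold change 1.04, SE 0.09, adjusted p = 0.00379 in edgeR's quasi-likelihood test). This list and the lists below were chosen with earlier results of these data known.

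Of the 9 members with enough reads to be tested, 3 (Ccl7, Ccl20 and Ackr3) were past the adjusted threshold of 0.05 in edgeR on the lower side, where 6.69% of the 15862 genes tested lay, and 0 on the higher side, where 5.00% lay. 5 of the 9 had lower counts in all TGF-β1 cultures than in any CTL culture, as did 18.0% of genes tested, and 0 had higher counts in all of them, as did 17.2%. Counts were lower in all 3 same-numbered pairs for 8 of the 9, against 32.6% of genes. With the replicate number as a block, 7 members were past the threshold on the lower side (19.1% of genes) and 0 on the higher side (15.1%), and DESeq2 placed 6 on the lower side (9.59%). Because these values chose the members, nothing is read from the counts. The labels do not say whether replicates came from separate animals. The Y-linked levels separate replicate 2 from replicates 1 and 3 but do not separate those from each other, so p-values for other genes measure the spread between cultures, part of which may be technical.

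**Figure D2:**
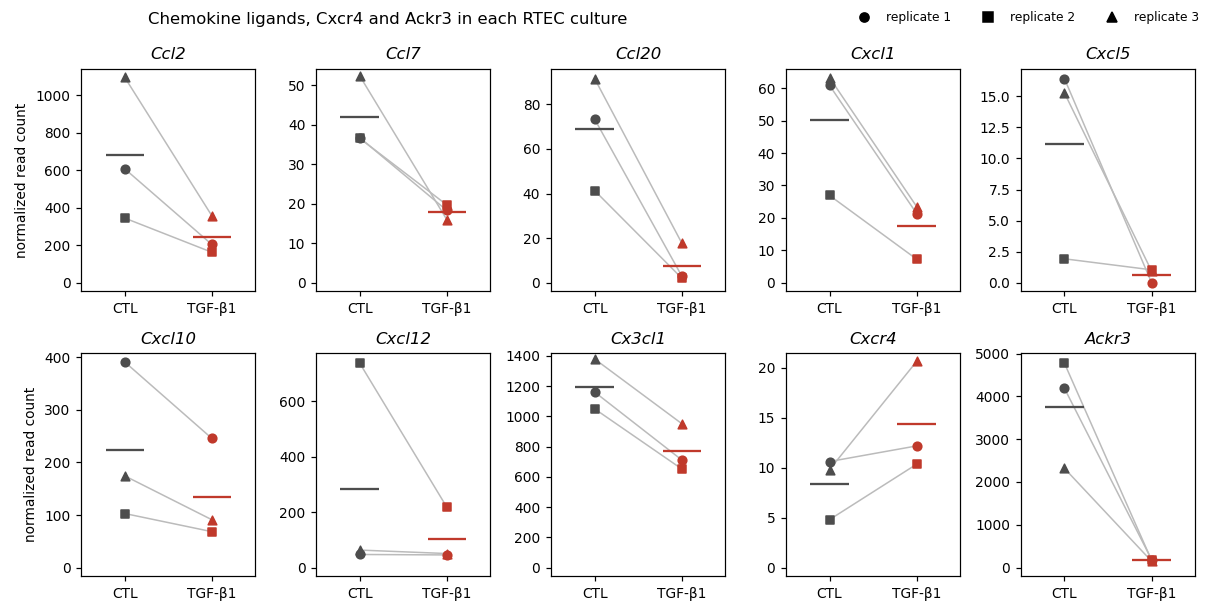
Each panel gives normalized read counts of 1 member in the 3 CTL (grey) and 3 TGF-β1 (red) cultures, with shapes for replicate numbers, lines joining the same number and bars at group means. Ackr3 separates furthest, from 2316 to 4770 in CTL to 148.4 to 187.9 with TGF-β1, and Cxcl12 is highest in replicate 2 of each group.

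Among the monocyte attractants, Ccl2 had normalized counts (library-scaled read counts) of 608.4, 345.1 and 1097 in CTL replicates 1, 2 and 3 and 204.2, 162.6 and 357.7 in the TGF-β1 replicates. Replicate 3 was highest in both groups, and TGF-β1 replicate 3 exceeded CTL replicate 2, so the groups overlapped. The fitted log2 fold change was −1.50 (SE 0.49), and −0.98 to −1.90 when a single culture was left out, without CTL replicate 3 and TGF-β1 replicate 3 respectively. TGF-β1 counts were 33.6%, 47.1% and 32.6% of the same-numbered CTL counts. In bulk RNA, fewer cells of a type and less RNA per cell cannot be told apart. Its neighbour Ccl7 had 36.7, 36.5 and 52.3 normalized counts in CTL and 18.3, 19.7 and 16.0 with TGF-β1. The groups did not overlap, and the log2 fold change was −1.21 (SE 0.23). Per kb of exon, Ccl2 exceeded Ccl7 by 11.7, 6.65 and 14.8 times in CTL and by 7.86, 5.82 and 15.8 times with TGF-β1, so the ratio of the neighbours overlapped between groups.

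Ccl20 had 73.4, 41.3 and 91.6 normalized counts in CTL and 3.0, 2.1 and 17.8 with TGF-β1. All TGF-β1 cultures were below all CTL cultures, and the spread among them was wide. The log2 fold change was −3.11 (SE 0.70), and −4.68 without TGF-β1 replicate 3. In replicates 1 and 2 the TGF-β1 level rested on 3 and 2 reads, at 4.15% (95% interval 0.838 to 12.6, exact binomial, counting error only) and 5.01% (0.588 to 19.2) of CTL, and in replicate 3 it was 19.5% of CTL.

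The neutrophil attractant Cxcl1 had 60.8, 26.9 and 63.2 normalized counts in CTL and 21.3, 7.3 and 23.5 with TGF-β1. The lowest culture of each group was replicate 2, and the groups did not overlap, with a log2 fold change of −1.52 (SE 0.50). Pairs kept 35.1%, 26.9% and 37.1% of the CTL level. Cxcl5, the other neutrophil attractant, was near the floor, with 17, 2 and 14 reads in CTL and 0, 1 and 1 with TGF-β1. Over all cultures its 2 TGF-β1 reads were 6.02% of the CTL level after scaling (95% interval 0.699 to 23.5), and it was too low to enter the fit over the 6 cultures.

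Cxcl10, an interferon-inducible ligand, had 391.1, 102.9 and 174.5 normalized counts in CTL and 245.8, 68.4 and 91.1 with TGF-β1. Replicate 1 was highest in both groups, and its TGF-β1 culture exceeded 2 CTL cultures. The log2 fold change was −0.72 (SE 0.66), with pairs at 62.8%, 66.5% and 52.2% of CTL. It was −0.04 without CTL replicate 1, −0.41 without TGF-β1 replicate 2, −1.07 without CTL replicate 2, and reached −1.48 when TGF-β1 replicate 1 was left out. Cx3cl1, the membrane-bound ligand, had 1161, 1050 and 1379 normalized counts in CTL and 712.0, 652.5 and 952.1 with TGF-β1. All TGF-β1 cultures were lower than all CTL cultures, by a log2 fold change of −0.63 (SE 0.17), and the pairs were at 61.3%, 62.2% and 69.0% of CTL.

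Cxcl12, the ligand of both member receptors, had 47.3, 738.2 and 63.2 normalized counts in CTL and 45.7, 218.5 and 50.7 with TGF-β1. Replicate 2 was far above the other cultures in both groups, and the groups overlapped. The log2 fold change of −1.44 (SE 1.21) became −0.19 without replicate 2, 0.92 without its CTL culture and −2.56 without its TGF-β1 culture. TGF-β1 counts were 96.6%, 29.6% and 80.2% of CTL in the pairs.

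Replicate 2 also stood apart in fibroblast genes, in both directions. In CPM, Cxcl12 stood at 23.3 and 6.90 in the replicate 2 CTL and TGF-β1 cultures and at 1.44 to 2.00 in the others. Of 7 fibroblast markers, 4 were likewise highest in both replicate 2 cultures. Pdgfrb, a receptor of mesenchymal cells, was at 227 and 115 CPM there and at 45.8 to 101 elsewhere. The collagen gene Col1a1 was at 1463 and 1833 CPM there and at 506 to 809 elsewhere. Dcn and Col3a1 were also highest there. In contrast, Postn, a matrix gene, was lowest there, at 331 and 403 CPM against 455 to 934. Pdgfra was at 0.880 and 0.654 CPM against 0.884 to 2.22, with CTL replicates 1 and 2 about level. Lum was at or under 0.826 CPM throughout. The epithelial marker Epcam was lowest there, at 63.2 and 53.4 CPM against 163 to 288. The part of other cells in the Cxcl12 level was not tested.

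**Figure D3:**
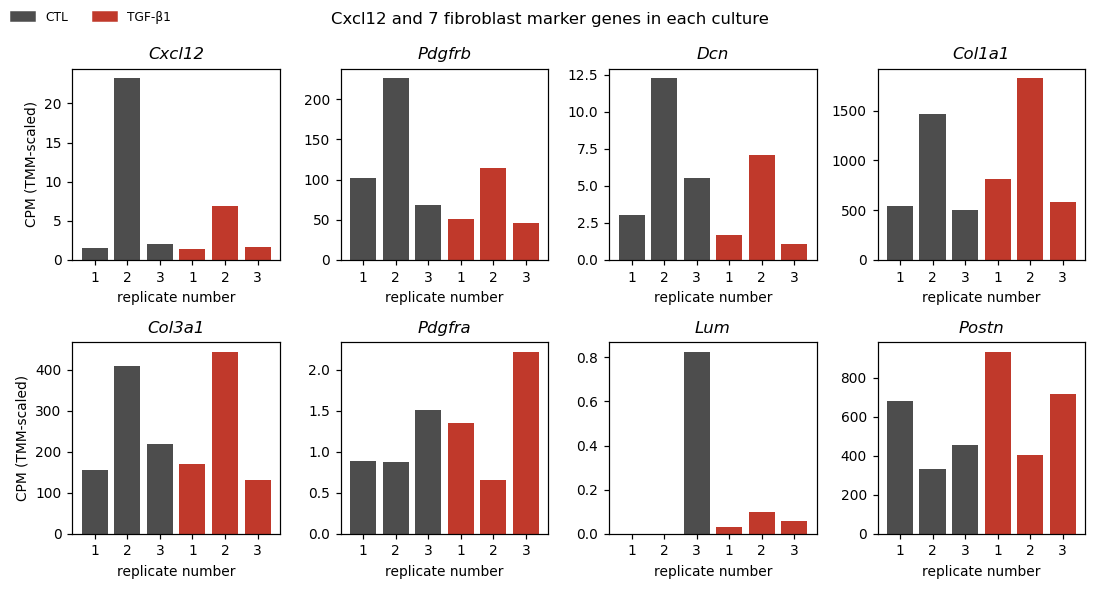
Bars give TMM-scaled CPM of Cxcl12 and of the 7 fibroblast markers in each culture by replicate number, CTL in grey and TGF-β1 in red, each panel from 0 on its own scale. Cxcl12, Pdgfrb, Dcn, Col1a1 and Col3a1 are highest in both replicate 2 cultures, whereas Postn is lowest there. Pdgfra is about level in CTL replicates 1 and 2.

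Ackr3, the scavenging receptor, had 4184, 4770 and 2316 normalized counts in CTL and 187.9, 169.9 and 148.4 with TGF-β1. The groups did not overlap, and the CTL cultures spread more widely than the TGF-β1 cultures. The log2 fold change was −4.48 (SE 0.31), a 22.3-fold lower level, and the pairs stood at 4.49%, 3.56% and 6.41% of CTL. Cxcr4, the signalling receptor for CXCL12, was the only 1 of the 9 fitted members with a positive log2 fold change, at 0.78 (SE 0.42). It had 10.6, 4.8 and 9.8 normalized counts in CTL and 12.2, 10.4 and 20.7 with TGF-β1. The groups overlapped, since TGF-β1 replicate 2 lay below CTL replicate 1, and these are 5 to 22 reads per culture. The log2 fold change was 0.42 without TGF-β1 replicate 3 and 0.50 without CTL replicate 2.

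**Figure D4:**
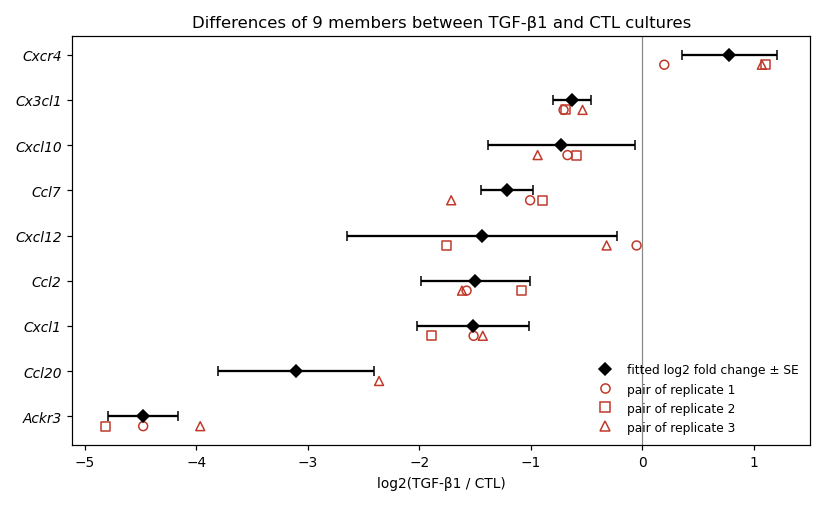
Black diamonds give the fitted log2 fold change (TGF-β1 over CTL) with its SE for the 9 members in the fit, and red open symbols the log2 ratio of each same-numbered pair, drawn for Ccl20 in replicate 3 alone. Ackr3 lies at −4.48, Cxcl12 has its pairs from −1.76 to −0.05, and Cxcr4 lies above 0 in all 3 pairs.

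Levels were compared between genes as CPM per kb of exon. In CTL the order of means was Ackr3 (35.4 ± 12.1, SD, n = 3), Ccl2 (19.0 ± 10.6), Cx3cl1 (9.61 ± 1.35), Cxcl10 (3.12 ± 2.10), Ccl7 (1.65 ± 0.36), Ccl20 (1.53 ± 0.57), Cxcl12 (1.09 ± 1.52), Cxcl1 (0.847 ± 0.342), Cxcl5 (0.190 ± 0.136) and Cxcr4 (0.147 ± 0.055). Only Cx3cl1 and Cxcl10, and Cxcl1 and Cxcl5, were neighbours whose cultures did not overlap. With TGF-β1 the order was Ccl2 (6.70 ± 2.85), Cx3cl1 (6.20 ± 1.27), Cxcl10 (1.89 ± 1.35), Ackr3 (1.59 ± 0.19), Ccl7 (0.708 ± 0.074), Cxcl12 (0.405 ± 0.380), Cxcl1 (0.292 ± 0.148), Cxcr4 (0.251 ± 0.096), Ccl20 (0.170 ± 0.196) and Cxcl5 (0.0112 ± 0.0097). Here the neighbours without overlap were Cx3cl1 and Cxcl10, Ackr3 and Ccl7, and Ccl20 and Cxcl5. Ackr3 was thus at rank 1 in CTL, with cultures overlapping those of Ccl2, and at rank 4 with TGF-β1.

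The balance of the receptors differed accordingly. Ackr3 exceeded Cxcr4 per kb by 213, 536 and 127 times in CTL replicates 1 to 3 and by 8.33, 8.86 and 3.88 times with TGF-β1. It made up 99.2% to 99.8% of the pair's summed level in CTL and 79.5% to 89.9% with TGF-β1. Relative to Cxcl12, Ackr3 stood at 216, 15.8 and 89.4 times in CTL and at 10.0, 1.90 and 7.15 times with TGF-β1. The Cxcr4 levels rest on 11, 5 and 9 reads in CTL replicates 1 to 3 and on 12, 10 and 22 with TGF-β1, so the size of each ratio to Cxcr4 is imprecise. All of these ratios are of RNA.

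Per kb of exon, the 8 ligands summed to 36.2, 25.1 and 49.6 CPM in CTL replicates 1 to 3 and to 16.1, 12.5 and 20.5 CPM with TGF-β1, without overlap. Ccl2 supplied 46.6%, 38.1% and 61.3% of this sum in CTL and 35.1%, 36.0% and 48.5% with TGF-β1, and Cx3cl1 25.7%, 33.5% and 22.3% in CTL and 35.4%, 41.9% and 37.3% with TGF-β1. Ccl2 was thus the larger of these shares in all CTL cultures and in TGF-β1 replicate 3, and Cx3cl1 in TGF-β1 replicates 1 and 2. Cxcl12 supplied 11.3% and 6.74% in the replicate 2 cultures and 0.492% to 1.09% elsewhere. Its share was thus higher in both replicate 2 cultures than in any other culture.

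The rest of the chemokine family was read from a list of 30 further ligands and 21 further receptors. Of the ligands 9 could be tested, and edgeR's quasi-likelihood test and DESeq2 each placed 0 past the adjusted threshold. 2 had an unadjusted p under 0.05 in edgeR, and both were higher with TGF-β1. The median log2 fold change of the 9 was −0.45, and it was −0.0028 over all genes tested. 7 ligands had 0 counts in every culture, and none of those untested exceeded 28. Of the most abundant, Cxcl16, a membrane-bound ligand, had 2370 ± 1137 normalized counts in CTL and 1663 ± 715 with TGF-β1 (SD, n = 3; edgeR adjusted p = 0.535), Ppbp, a platelet-type ligand beside Cxcl5, 296.6 ± 185 and 328.7 ± 137 (adjusted p = 0.886), and Cxcl14 434.9 ± 285 and 261.5 ± 30.3 (adjusted p = 0.382). With the replicate block 3 passed, where 19.1% of all genes tested were called lower and 15.1% higher. Cxcl16 (log2 fold change −0.49, edgeR adjusted p = 0.000289) and Ccl5 (−0.85, adjusted p = 0.0138) were lower and Ccl9 (0.98, adjusted p = 0.0361) higher. Ccl5 and Ccl9 were named after their values were seen.

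Of the receptors 7 could be tested, and edgeR placed 0 past the threshold, with 1 at an unadjusted p under 0.05. The median log2 fold change was 0.10, and none of the untested receptors exceeded 8 counts. Past the threshold on the higher side, the replicate block placed 15.1% of all genes tested. The block and DESeq2 each placed 1 receptor there, Cxcr6, the receptor of CXCL16, which was named after its values were seen. It had 15.5, 48.1 and 14.2 normalized counts in CTL and 58.9, 176.1 and 50.7 with TGF-β1, so all TGF-β1 cultures were higher (log2 fold change 1.86, SE 0.70, edgeR adjusted p = 0.145, and 1.87, SE 0.17, adjusted p = 0.000152 with the block).

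**Figure D5:**
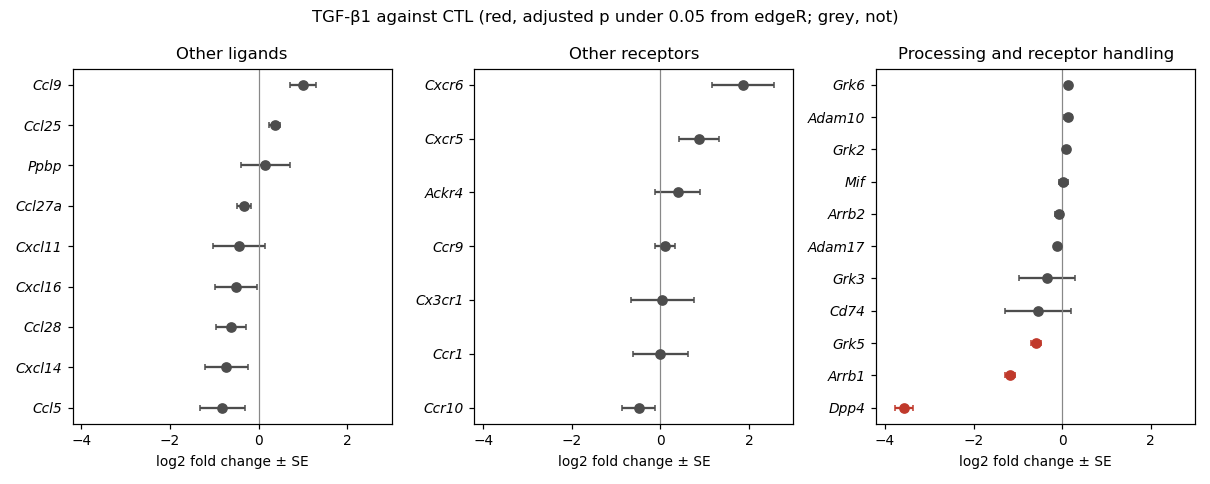
Log2 fold changes with SE for the tested genes of 3 lists, other ligands, other receptors and genes of processing and receptor handling, with red for adjusted p under 0.05 in edgeR. The 3 red points are Dpp4 at −3.56, Arrb1 at −1.17 and Grk5 at −0.60.

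Genes that act on chemokines or their receptors were then read as a list of 11, all tested. 3 fell, against 6.69% of all genes tested, 0 rose, and the median log2 fold change was −0.11. Dpp4, the surface protease that clips CXCL12, CXCL10 and others, had 284.9, 240.3 and 250.8 normalized counts in CTL and 19.3, 17.6 and 28.2 with TGF-β1 (log2 fold change −3.56, SE 0.20, edgeR adjusted p = 0.00121). The arrestin Arrb1, which ACKR3 recruits, fell from 822.9 ± 66.1 to 365.6 ± 45.1 normalized counts (SD, n = 3; edgeR adjusted p = 0.00436). Grk5, a receptor kinase, fell from 361.2 ± 21.4 to 238.8 ± 29.1 (edgeR adjusted p = 0.0261). Its call was lost without CTL replicate 1, 2 or 3 or TGF-β1 replicate 1 or 2, at log2 fold changes of −0.63 to −0.55, whereas Dpp4 and Arrb1 stayed past the threshold without any 1 culture. Adam10 and Adam17, the proteases that shed CX3CL1 and CXCL16, Mif and its receptor Cd74, Arrb2, Grk2, Grk3 and Grk6 did not pass, and Cd74 passed with the block (log2 fold change −0.58, adjusted p = 0.0162).

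NF-κB feedback and cytokine genes, which share inducers with several member ligands, were a list of 21 of which 16 were tested. 2 fell and 0 rose, against 6.69% and 5.00% of all genes tested. The median log2 fold change was −0.39, and 14 of 16 were below 0, as were 50.7% of all genes tested. Il6 and Tnf, named after their values were seen, were among the untested genes. Il6 had 2 reads in each CTL culture and 5, 19 and 8 with TGF-β1. Tnf had 3, 6 and 11 reads in CTL and 1, 3 and 3 with TGF-β1. Bcl3, a nuclear IκB protein, fell from 955.7 ± 54.3 to 451.8 ± 111 normalized counts (SD, n = 3; edgeR adjusted p = 0.0201), and Icam1, the leukocyte adhesion molecule, from 2086 ± 563 to 945.2 ± 261 (adjusted p = 0.0468). Bcl3 lost its call without CTL replicate 1 or 3 or TGF-β1 replicate 1, and Icam1 without CTL replicate 1 or 3 or any TGF-β1 culture. With the replicate block 10 fell (19.1% of all genes tested), and DESeq2 placed 5 on the lower side (9.59%). Leukocyte markers, whose ranges are given with the depth, were a list of 9 of which 7 were tested. Of these, 1 (Csf1r) was past the threshold on the lower side and 0 on the higher side, against 6.69% and 5.00% of all genes tested. The part of leukocytes in the ligand levels was not tested.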

How the data were processed

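Read counts per gene were deposited by the authors for 6 cultures. Per the labels and methods, 50-bp single-end reads of poly(A) RNA were trimmed with Trim Galore, aligned to GRCm38 with STAR 2.4.1d and counted with HTSeq 0.6.1, which leaves out multi-mapped and ambiguous reads. The annotation release was not given in the sources used here. Rows naming no gene, 25.4% to 25.9% of each file's sum, were left out. Symbols, positions and exon lengths came from GENCODE M21 (46005 of 46517 identifiers matched).

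The fit across genes used edgeR 4.0.16 under R 4.3.3 (filterByExpr, TMM, robust glmQLFit, glmQLFTest, two-sided, Benjamini-Hochberg over 15862 genes, threshold 0.05). SEs were derived from the F statistic. Normalized counts were TMM-scaled to the geometric mean library size. The code was tested on simulated data. Members and lists were chosen with earlier results of these data known. Named genes were all members, list genes past the threshold (at most 6 per list) and the 3 most abundant other ligands. Replicate numbers came from the sample titles. Deviations of same-numbered cultures correlated at 0.340, 0.684 and 0.572, and others at −0.617 to 0.215. Each culture thus resembled its same-numbered partner most, by a small margin for CTL replicate 1 (0.215 with TGF-β1 replicate 3). The study describes no pairing, so the main fit was unpaired and its p-values ignore this likeness. The replicate block takes it into account. No pair of libraries was a duplicate (chi-square per degree of freedom at least 9.82). Alternatives were DESeq2 1.42.0, RLE, library size only, other count filters, the replicate block, transcript length and left-out cultures. Figures used matplotlib 3.10.9.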

Additional observations from a re-analysis of the deposited data

How the results depend on the processing

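The number of members past the threshold, 3, was 6 with DESeq2, 7 with the replicate block and 0 to 5 when cultures were left out: 1 without CTL replicate 1, CTL replicate 3, TGF-β1 replicate 1 or TGF-β1 replicate 2, 5 with replicate 2 left out of each group (Ccl7, Ccl20, Cxcl1, Ackr3 and Cxcl5, which had enough reads to be tested there), and 0 with replicate 1 left out of each, where no gene passed and 1938 had an unadjusted p under 0.05. Over all genes, 793 were higher and 1061 lower. Higher genes were 508 with library size only, 1201 with DESeq2, 2388 with the replicate block and 0 to 1084 with cultures left out, and lower genes 3037 with the block and 0 to 1290. Calls were 42.8% higher with TMM and 25.7% with library size only. Other ligands past the threshold were 0, and 3 with the block and 0 to 1 with cultures left out; other receptors 0, 1 with DESeq2, 1 with the block and 0 to 1. Handling genes were 3, and 0 to 3 with cultures left out. NF-κB genes were 2, 1 with no count filter, 5 with DESeq2, 10 with the block and 0 to 6, and TGF-β response genes 8 and 0 to 7. Cxcl12 had a log2 fold change of 0.92 without CTL replicate 2 (range −2.56 to 0.92), and Ackr3 ranged from −4.73 to −4.27 with cultures left out. The cause of these shifts was not tested. Ccl20 passed the threshold with neither no count filter nor at least 10 counts per culture, the latter leaving it out. Without CTL replicate 2, Cxcl5 was likewise tested and among the 3 that passed. Low counts limit Cxcl5, Cxcr4 and, with TGF-β1, Ccl20 and Cxcl1.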
